A study of Mus musculus with 4 samples.

Results

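The genes described here are 5 small GTPases of the Ras family (Hras, Nras, Rras, Rras2 and Mras) and 2 GTPase-activating proteins, or GAPs, that switch Ras off (Nf1 and Rasa1). They were read by 16 of the 45101 probe sets of the array: the platform's annotation assigned 14, and the other 2, 1422407_s_at and 1424132_at, were assigned to Hras by the rule that chose the genes and are unnamed in the annotation used here. Each array held RNA from neural stem cells of C57BL/6 mouse telencephalon at embryonic day 14.5. All the cells were p53-/-, had been transfected with pCMS-EGFP-HRasL61 (an activated HRas together with green fluorescent protein) and pBabe-neo, kept in 0.5 mg/ml neomycin and sorted as GFP-positive. The medium held PDGF, bFGF and forskolin. The GIC group (2 arrays) is the tumorigenic subline, labelled glioma-initiating cell-like, and the non-GIC group (2 arrays) is the nontumorigenic subline. Each group is a single subline, no array of cells without the HRas vector was analysed here, and whether a subline's arrays stand for separate cultures is not stated in the labels. The p-values therefore reflect only how far these samples spread, possibly for technical reasons, and differences between the sublines cannot be told apart from tumorigenicity.

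Ras proteins are membrane-bound switches that signal while they hold GTP. Exchange factors load them with GTP after growth factor receptors are engaged, and GAPs such as neurofibromin (the Nf1 product) and p120 RasGAP (the Rasa1 product) speed up GTP hydrolysis and end the signal. The L61 form of HRas resists GAPs and stays on. Nf1 is a tumour suppressor in glioma, and mRNA level is only a part of how these proteins are controlled.

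The signals are the deposited values on a log2 scale, so a difference of 1 is 2-fold. A probe set was tested where 2 or more arrays exceeded 5.97, the 40th percentile of the whole table, and all 16 member probe sets passed. Signals of different probe sets cannot be ranked against each other, because each binds its target with its own efficiency. Of 10 neural stem cell marker genes, 9 were tested, all but Prom1. Over all 10 genes the mean log2 signal was 8.82 to 8.91 on the GIC arrays and 9.23 to 9.55 on the non-GIC arrays, and the progenitor filament Nes had probe sets that passed as lower in GIC. The radial glial Fabp7 also passed as lower, but both GIC arrays read 5.23, under the level, so only the non-GIC arrays kept it in the test. Of 5 neuronal genes 4 were tested: the dendritic Map2 passed as lower in GIC (difference -2.29, limma adjusted p = 0.0217), while Tubb3 had a difference of 1.15 (limma adjusted p = 0.374). No astrocyte gene passed among the 4 tested of 5. Of the microglial and leukocyte genes, Ptprc, Aif1, Cx3cr1 and Itgam did not reach the level for testing and Csf1r did. Of the endothelial genes, Pecam1, Cdh5 and Tek did not and Kdr and Cldn5 did, and of the oligodendrocyte lineage genes, Olig1, Olig2 and Mog did not and Mbp and Cnp did. None of these tested genes passed (limma adjusted p from 0.318 for Csf1r to 0.856 for Kdr). All 5 fibroblast and mural genes were tested, with a mean log2 signal of 10.86 to 11.93 on the GIC arrays and 11.83 to 11.84 on the non-GIC arrays. Of these, Acta2 passed as lower in GIC (difference -1.71, limma adjusted p = 0.0361). The other 4 did not pass and went both ways: Col1a1 -2.06, Pdgfrb -0.19, Col1a2 1.26 and Dcn 0.52. Col1a1 read 13.59 and 10.70 on the GIC arrays. Wide gaps also lay between the non-GIC arrays: Col1a2 read 11.46 and 9.28 there, Slc1a3 8.78 and 11.00, and Tubb3 7.98 and 9.56. The part of these cell type markers in the values below was not tested.

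**Figure D1:**
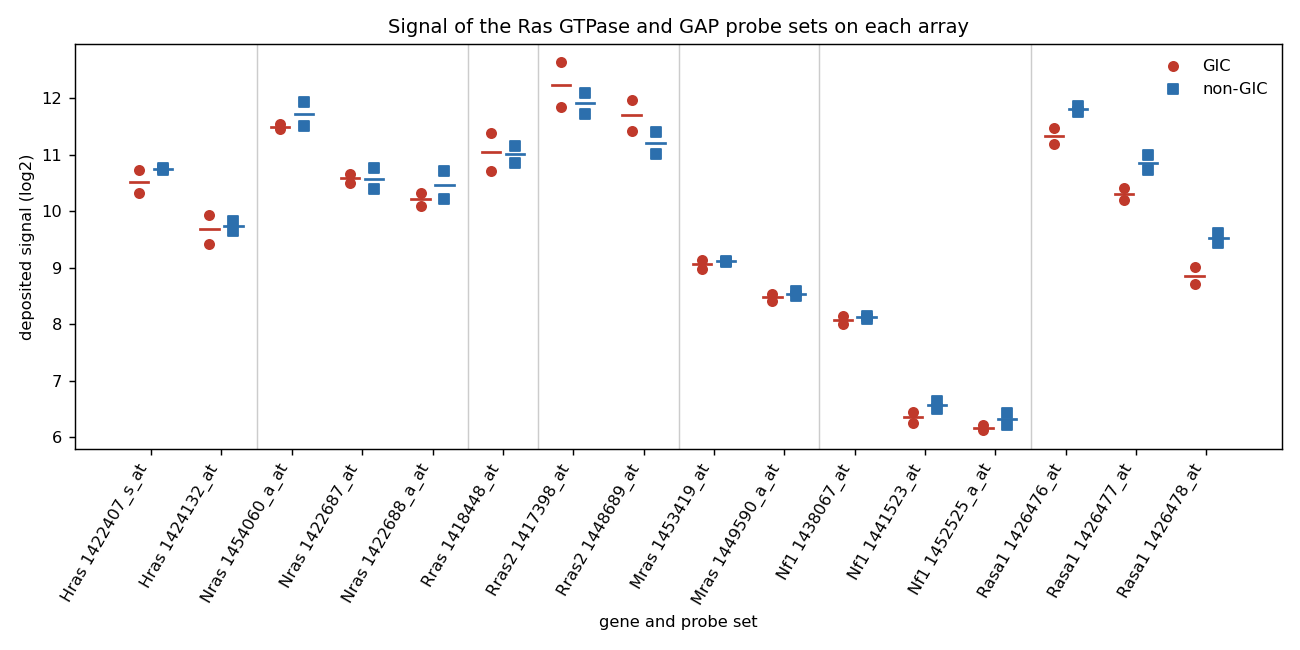
Deposited log2 signal (y axis) of each of the 16 probe sets (x axis, grouped by gene) on the GIC arrays (red circles) and the non-GIC arrays (blue squares), with bars at the means of 2 arrays. Rasa1 is the only gene with several probe sets in which, for each of them, both GIC values lie under both non-GIC values.

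No Ras GTPase or GAP probe set passed the test between the sublines. The RNA came from many cells at once, so fewer cells with a transcript and less transcript per cell cannot be told apart. Of 16 tested, 0 had an adjusted p under 0.05 (moderated limma test, Benjamini-Hochberg adjusted over 27575 probe sets), and 3, all of Rasa1, had an unadjusted p under 0.05. Over all tested probe sets, 1.58% passed and 17.2% had an unadjusted p under 0.05, so neither count stands apart. The log2 differences, GIC minus non-GIC, ran from -0.66 for a Rasa1 probe set to 0.49 for an Rras2 probe set, and all 16 were under 2-fold. Their median was -0.11, beside -0.02 over all tested probe sets, and 12 were below 0, against 52.9% of all tested probe sets. In 12 of the 16, the 2 arrays of a subline differed from each other by more than the sublines did. The same held for 63.4% of all tested probe sets.

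Hras is the gene whose activated form was introduced into these cells, so its probe sets were looked at first. The Hras locus lies on chromosome 7 from 141189934 to 141194019 (GRCm38.p6). The sequence around its start, from 250 bases before to 50 after (RefSeq, GRCm38.p6), is shown beside that of Rasa1, the member with the smallest p. Capitals mark the GC box, a promoter motif read as GGGCGG or CCGCCC on either strand.
Hras, chr7:141193955-141194254, minus strand: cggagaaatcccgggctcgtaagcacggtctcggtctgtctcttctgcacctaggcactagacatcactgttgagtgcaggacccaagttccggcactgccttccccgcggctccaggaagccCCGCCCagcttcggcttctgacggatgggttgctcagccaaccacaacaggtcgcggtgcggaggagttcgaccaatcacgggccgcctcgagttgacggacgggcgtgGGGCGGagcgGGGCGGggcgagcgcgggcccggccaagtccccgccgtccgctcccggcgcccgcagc
Rasa1, chr13:85289437-85289736, minus strand: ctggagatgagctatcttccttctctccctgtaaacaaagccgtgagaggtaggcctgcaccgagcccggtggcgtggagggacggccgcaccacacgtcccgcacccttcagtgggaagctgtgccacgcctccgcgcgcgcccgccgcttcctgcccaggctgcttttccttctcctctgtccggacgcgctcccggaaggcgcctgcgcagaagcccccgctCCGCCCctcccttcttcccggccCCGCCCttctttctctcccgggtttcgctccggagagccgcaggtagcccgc

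The Hras window held 3 GC boxes and the Rasa1 window 2. A GC box was found at 6 of the 9 starts, and 35.7% of 32851 mouse promoter windows of this length held the motif. By gene, 6 of the 7 had one, Rras being the exception at its 3 starts. The GC content was 69.0% for Hras and 68.7% for Rasa1, and 52.3% to 75.7% over all 9 starts, beside a median of 52.7% over all windows. A TATA box (TATAAA or TTTATA) was found at 0 of the 9 starts and in 13.6% of all windows. A CCAAT box (CCAAT or ATTGG) was found at 4 of the 9 starts, Hras among them, and in 37.4% of all windows. Among these starts are Rras windows that overlap and share a match, so the 4 are not separate sites. No motif contains another, and these matches are descriptions of the windows only.

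The Hras probe sets did not differ between the sublines beyond the spread of the arrays. Probe set 1422407_s_at, whose suffix marks probes shared by several transcripts, read 10.33 and 10.72 in GIC, against 10.73 and 10.76 in non-GIC. GIC replicate 1 was the low array, and GIC replicate 2 lay just under both non-GIC arrays, so the groups touched without overlap. The means were 10.52 ± 0.28 in GIC, against 10.74 ± 0.02 in non-GIC (SD, n = 2 each), a log2 difference of -0.22 (SE 0.20, limma adjusted p = 0.647). Probe set 1424132_at read 9.43 and 9.94 in GIC, against 9.83 and 9.65 in non-GIC. Here the GIC arrays lay on both sides of the non-GIC arrays. Its difference was -0.05 (SE 0.24, limma adjusted p = 0.934). Without GIC replicate 1 it was 0.20, and without GIC replicate 2 it was -0.31.

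The 95% intervals of the Hras differences were not adjusted for the number of probe sets. They ran from 0.597 to 1.24 times the non-GIC signal for 1422407_s_at and from 0.628 to 1.48 times for 1424132_at. Both intervals include no change. They rest on the spread of 2 arrays of a single subline in each group. A larger difference between such cells is therefore not excluded. As a check of the transgene, this comparison is limited. Whether the 2 probe sets bind the vector's HRas transcript depends on which part of the mRNA the vector carries and from which species, and neither is given in the sources used here. Endogenous and vector-derived Hras therefore cannot be told apart, and the lack of cells without the vector leaves no background level to set these signals against.

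Nras, the other classical Ras GTPase described here, lies on chromosome 3 and was read by 3 probe sets. Probe set 1454060_a_at read 11.54 and 11.46 in GIC, against 11.94 and 11.50 in non-GIC. Probe set 1422688_a_at read 10.09 and 10.33 in GIC, against 10.72 and 10.21 in non-GIC. In all 3 probe sets non-GIC replicate 1 was the highest array. Probe set 1422687_at read 10.50 and 10.67 in GIC, against 10.77 and 10.39 in non-GIC, so the groups overlapped in each of the 3. The log2 differences lay between -0.25 and 0.00, with limma adjusted p from 0.644 to 0.994. Without non-GIC replicate 1, the difference of 1422688_a_at was 0.00.

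Rras, Rras2 and Mras form the R-Ras branch, whose members are linked to adhesion and integrin function (Rras) and to growth control. Rras2, also called TC21, lies on chromosome 7 and was the only GTPase read by several probe sets whose mean was higher in GIC in each of them. Probe set 1448689_at read 11.43 and 11.97 in GIC, against 11.01 and 11.41 in non-GIC. The groups did not overlap, by a margin smaller than the gap between the arrays of either subline. The difference was 0.49 (SE 0.26, limma adjusted p = 0.429). Higher without overlap was found in 1 of the 16 member probe sets and in 23.6% of all tested probe sets.

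The second Rras2 probe set, 1417398_at, read 11.85 and 12.64 in GIC, against 11.72 and 12.10 in non-GIC, which overlapped. Its difference was 0.33 (SE 0.31, limma adjusted p = 0.652). In both Rras2 probe sets GIC replicate 2 was the highest array and non-GIC replicate 1 the lowest. Without GIC replicate 2 the differences fell to 0.22 for 1448689_at and -0.06 for 1417398_at.

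Rras, on chromosome 7, was read by 1418448_at alone, at 11.39 and 10.72 in GIC, against 10.86 and 11.16 in non-GIC. The GIC arrays were the highest and the lowest of the 4, and the difference was 0.04 (SE 0.28, limma adjusted p = 0.956). It was -0.29 without GIC replicate 1 and 0.38 without GIC replicate 2. Mras, on chromosome 9, encodes a GTPase that acts with Shoc2 to release Raf kinases from inhibition. Its probe set 1453419_at read 9.14 and 8.98 in GIC, against 9.12 and 9.11 in non-GIC. Its other probe set, 1449590_a_at, read 8.54 and 8.42 in GIC, against 8.50 and 8.59 in non-GIC. The Mras values were the closest between the sublines among the genes with several probe sets, with differences of -0.05 and -0.06 and limma adjusted p of 0.906 and 0.874.

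**Figure D2:**
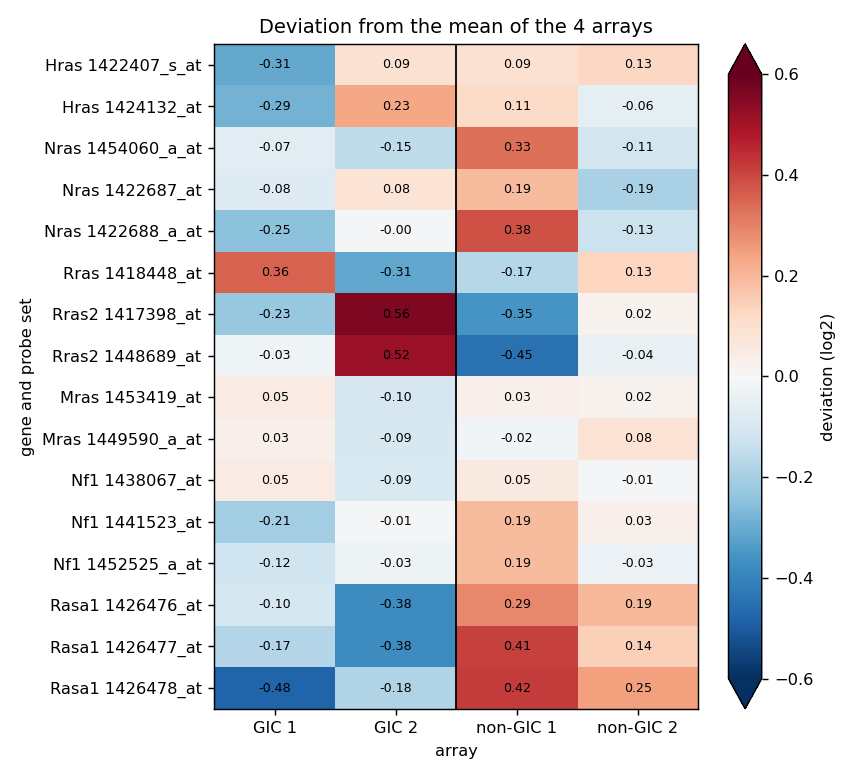
Deviation of each array from the probe set's mean over the 4 arrays (log2, colour and printed value), with GIC arrays left and non-GIC arrays right of the line. The Rras2 rows are highest on GIC replicate 2, and the Rasa1 rows are below 0 on both GIC arrays.

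Of the GAPs, Rasa1, on chromosome 13 from 85214699 to 85289486 (GRCm38.p6), had 3 probe sets, and in each of them both GIC arrays lay under both non-GIC arrays. None of them passed the test. Probe set 1426478_at read 8.71 and 9.01 in GIC, against 9.61 and 9.44 in non-GIC. Its means were 8.86 ± 0.21 in GIC, against 9.53 ± 0.12 in non-GIC (SD, n = 2 each), a difference of -0.66 (SE 0.19, unadjusted p = 0.0191, limma adjusted p = 0.198).

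Rasa1 probe set 1426477_at read 10.41 and 10.20 in GIC, against 10.99 and 10.72 in non-GIC, a difference of -0.55 (SE 0.19, limma adjusted p = 0.254). Probe set 1426476_at read 11.47 and 11.19 in GIC, against 11.86 and 11.77 in non-GIC, a difference of -0.48 (SE 0.17, limma adjusted p = 0.263). The GIC signal was thus 0.631, 0.681 and 0.715 times the non-GIC signal in the 3 probe sets, in that order. The 3 probe sets share arrays and a transcript and are not independent evidence.

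Lower in GIC without overlap was found in 5 of the 16 member probe sets: the 3 of Rasa1, Nf1 1441523_at and Hras 1422407_s_at. The same held for 25.7% of all tested probe sets. Among the 1619 genes with exactly 3 tested probe sets, 14.8% had all 3 lower in GIC without overlap, as Rasa1 did. With 2 arrays a group, an exact permutation test of one probe set cannot go below p = 0.33. With each array left out in turn, the Rasa1 differences stayed between -0.81 and -0.35, and none passed (lowest limma adjusted p = 0.151).

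Nf1, on chromosome 11, had smaller differences, and the contrast with Rasa1 was not tested. Its probe set 1438067_at read 8.15 and 8.01 in GIC, against 8.16 and 8.09 in non-GIC, which overlapped (difference -0.04, SE 0.15, limma adjusted p = 0.913). Probe set 1441523_at read 6.25 and 6.46 in GIC, against 6.65 and 6.49 in non-GIC. There the GIC arrays were the lower ones, by a difference of -0.22 (SE 0.14, limma adjusted p = 0.494). Probe set 1452525_a_at read 6.12 and 6.21 in GIC, against 6.43 and 6.21 in non-GIC, a difference of -0.15 (SE 0.13, limma adjusted p = 0.613). The signals of the last 2 lay close above the level of 5.97, where a change can be understated. The 95% interval of 1438067_at ran from 0.745 to 1.26 times the non-GIC signal.

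**Figure D3:**
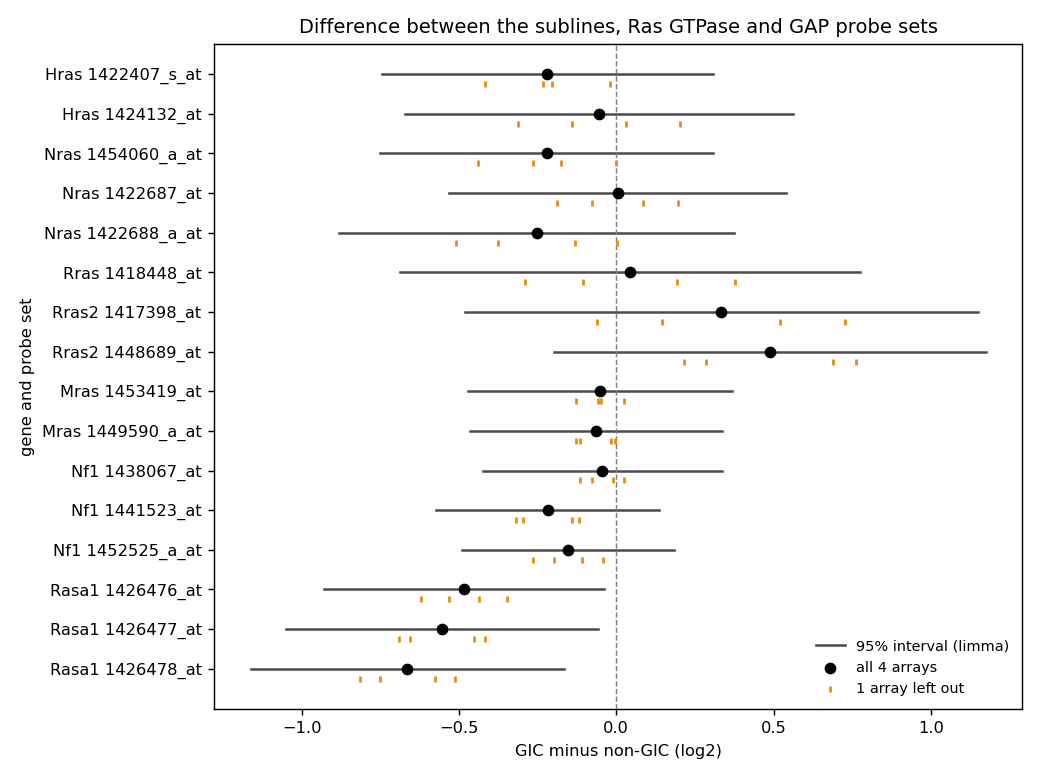
Log2 difference between the sublines, GIC minus non-GIC (x axis), of each probe set (rows), with limma's unadjusted 95% interval and the 4 values obtained with 1 array left out (ticks). The intervals of the 3 Rasa1 probe sets lie below 0, and the other 13 include 0.

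The genes whose log2 values followed Rasa1 1426478_at most closely over the 4 arrays, by the root mean square difference of mean-centred values, were Dnajc27 (0.015), Lrrc47 (0.017) and Zgrf1 (0.025). With only 4 arrays many genes share such a profile: 177 genes lay within 0.1 of it.

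The genes around Ras were looked at next. Of 95 genes in 7 lists (exchange factors, other GAPs and neurofibromin partners, adaptors, effectors, lipid processing, other Ras-branch GTPases and ERK output), 83 were tested with 148 probe sets. Of these genes, 1 was called higher and 2 lower in GIC, of which Rasgrp3 was tested only through its non-GIC values, and 4 of the lists held no gene that passed. The median log2 difference over all 13367 genes, each by its probe set with the highest mean signal, was -0.01. By that probe set, 147 of the 13367 genes passed as higher and 84 as lower. A list gene counted through any of its probe sets, so the counts are not alike, and they were not tested against each other. Over all tested probe sets 0.968% passed as higher and 0.613% as lower.

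Of 23 other Ras-branch GTPases tested, Rasl11a, a small GTPase reported at ribosomal DNA, rose and 22 did not pass. Rasl11a read 8.79 and 8.89 in GIC, against 6.26 and 6.37 in non-GIC, with no overlap. The 2 arrays of a subline differed by 0.106 in both sublines, and why these gaps were alike was not tested. Its difference was 2.52 (SE 0.14, limma adjusted p = 0.00927), or 5.75-fold. The call was lost without non-GIC replicate 1 or non-GIC replicate 2, where the difference was 2.47 or 2.58. Most calls over all probe sets ended there too, so that loss is not particular to Rasl11a. The list's median was -0.07. Its relative Rasl11b, named after its values were seen, read 9.88 and 8.71 in GIC, against 7.49 and 6.68 in non-GIC (difference 2.22, limma adjusted p = 0.129).

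Of 6 exchange factors tested, the diacylglycerol-responsive Rasgrp3 passed as lower in GIC and 5 did not pass. Rasgrp3 read 5.39 and 5.43 in GIC, under the level of 5.97, against 6.45 and 6.35 in non-GIC (difference -0.99, SE 0.10, limma adjusted p = 0.034). It entered the test only through the non-GIC arrays, so the size of the difference is uncertain; with no level filter the limma adjusted p was 0.0401. The median of this list was -0.23, with 5 of 6 genes below 0. Leaving out any array ended the Rasgrp3 call, in fits with 1 array left in a subline. Without either non-GIC array most calls over all probe sets ended too, so that loss is not particular to Rasgrp3. Its difference lay between -1.04 and -0.93 in these fits.

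Of 11 effectors tested, Rassf5, a Ras- and Rap-binding protein without kinase activity, fell and 10 did not pass. Its probe set 1422637_at read 6.43 and 6.53 in GIC, against 7.88 and 7.74 in non-GIC (difference -1.33, SE 0.13, limma adjusted p = 0.0301). Leaving out any array ended this call too, and without either non-GIC array the loss is again not particular to the gene. The difference of 1422637_at lay between -1.40 and -1.26 in these fits. The other Rassf5 probe set, 1422638_s_at, had a difference of -0.81 (limma adjusted p = 0.146). The phospholipase Plce1, named after its values were seen, read 7.75 and 7.46 in GIC, against 4.70 and 5.64 in non-GIC (difference 2.44, limma adjusted p = 0.0538). Both non-GIC values were under the level of 5.97, so Plce1 was tested only through the GIC arrays and the size of its difference is uncertain. The median of the effectors was 0.11.

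No gene passed among 10 other GAPs and neurofibromin partners, 8 adaptors, 12 lipid processing genes and 13 ERK output genes, with list medians of 0.05, -0.08, -0.04 and -0.09 (limma with Benjamini-Hochberg adjustment). The genes with the smallest p in each were as follows. Rasal2, another Ras GAP, had a difference of -0.68 at its probe set 1436248_at, and Spred2, a partner that brings neurofibromin to the membrane, had one of -0.54. The 5 tested probe sets of Spred2 ranged from -0.54 to -0.09. The adaptor Shc3 had a difference of -0.55 and the phosphatase Ptpn11 one of 0.36 (0.23 to 0.36 over 3 tested probe sets). Of the lipid processing genes, the depalmitoylase Abhd17a had a difference of 0.46 and the Ras palmitoyltransferase Zdhhc9 one of 0.67. The 3 tested probe sets of Abhd17a ranged from -0.04 to 0.46. Of the ERK output genes, Dusp6, a phosphatase that inactivates ERK, read 11.77 and 11.99 in GIC, against 11.23 and 10.72 in non-GIC, a difference of 0.91. The feedback inhibitor Spry1 had a difference of 0.80. The adjusted p of these 8 genes lay between 0.111 for Shc3 and 0.460 for Ptpn11.

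**Figure D4:**
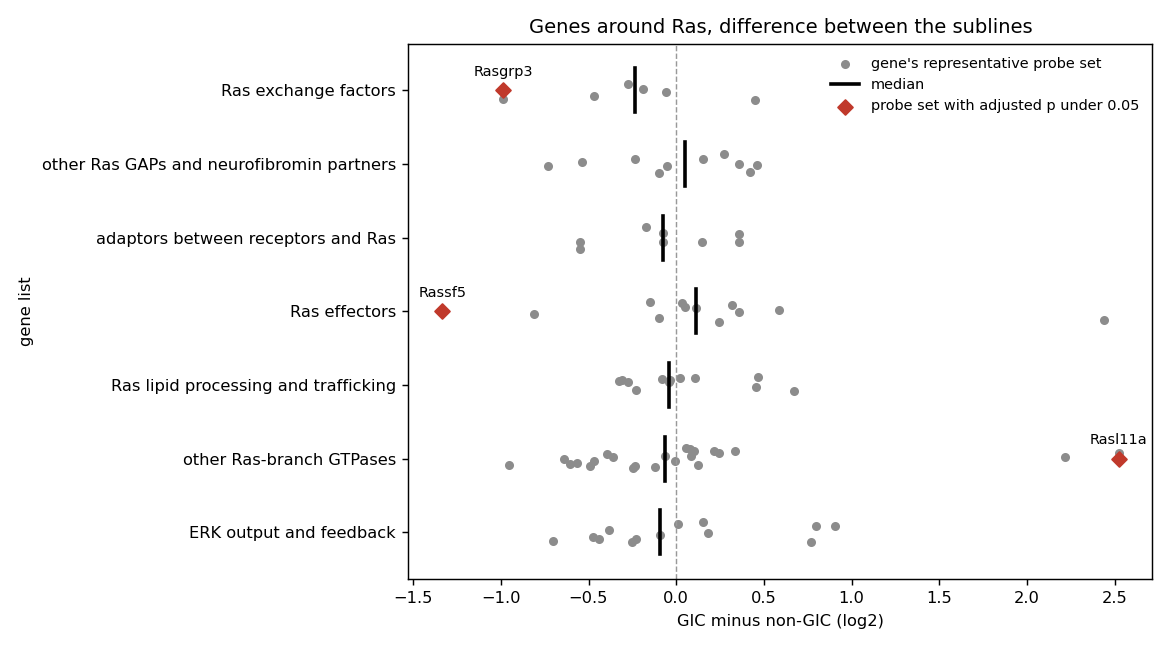
Log2 difference between the sublines, GIC minus non-GIC (x axis), of the genes in 7 lists around Ras (rows). Grey points are each gene's probe set with the highest mean signal, black bars the list medians, and red diamonds the probe sets that passed: Rasl11a at 2.52, Rasgrp3 at -0.99 (GIC values under the level) and Rassf5 at -1.33.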

How the data were processed

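Per the labels' protocols, 5 µg of total RNA per sample was labelled with biotin and hybridised to 1 array each. The authors deposited log2 signals, 1 for each probe set on each array; that they are log2 was inferred from their range of 2.75 to 15.12. Array medians of 6.58 to 6.63 show that the deposited log2 values had been scaled alike; how probes were summarised and normalized is not given in the sources used here. Names came from the platform's annotation, updated through Entrez identifiers to GRCm38.p6.

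The 64 control probe sets were left out. The remaining probe sets past the level filter were fitted with limma 3.58.1 in R 4.3.3 (lmFit with a term for group alone, then eBayes with a trend in intensity). Tests were two-sided at a Benjamini-Hochberg adjusted p of 0.05. The fit had 2 residual and 2.77 prior degrees of freedom. The procedure was tested on simulated data with independent errors on each array. Such data cannot show how the fit behaves where a group is a single subline. Figures were drawn with matplotlib 3.10.9. The number of arrays limits the precision, and no array pair held identical values (0 pairs).

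The members, lists and tests were chosen with earlier results of these data known. Every member probe set was named, with the list genes that passed, or otherwise the 2 with the smallest p in a list, and the 3 nearest profiles. Alternatives covered scaling, filter, eBayes settings, probe set choice, a replicate block and each array left out.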

Additional observations from a re-analysis of the deposited data

How the results depend on the processing

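No member probe set passed under any of the 15 alternatives run (lowest limma adjusted p = 0.109). Of 215 member values, 204 kept their direction and 11 turned, 10 of them with 1 array left out. The other was Nras 1422687_at, at -0.027 with median centring. Many of the 204 could not turn. A block, another filter or eBayes setting, or dropping other probe sets leaves the difference of a probe set unchanged. The count of 204 therefore does not measure how stable the directions were. With 1 array left out, differences ranged from -0.42 to -0.02 for Hras 1422407_s_at and from -0.31 to 0.20 for Hras 1424132_at, from -0.19 to 0.20 for Nras 1422687_at, from -0.51 to 0.0015 for Nras 1422688_a_at, from -0.29 to 0.38 for Rras, from -0.060 to 0.73 for Rras2 1417398_at, from -0.13 to 0.024 for Mras 1453419_at and from -0.11 to 0.026 for Nf1 1438067_at. Without turning, they ranged from -0.44 to -0.0020 for Nras 1454060_a_at, from 0.22 to 0.76 for Rras2 1448689_at, from -0.13 to -0.0028 for Mras 1449590_a_at, from -0.32 to -0.12 for Nf1 1441523_at and from -0.26 to -0.043 for Nf1 1452525_a_at.

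Of all probe sets, 436 passed with all arrays. The count ranged from 0 without non-GIC replicate 1 to 433 without GIC replicate 2, with 40 without non-GIC replicate 2 and 194 without GIC replicate 1. It was 257 with 1 probe set per gene and 252 with probe sets averaged by gene, where fewer features were tested. Samples share only a replicate number: the deviations of same-numbered arrays correlated at -0.31 over probe sets. The replicate block gave 49 probe sets and ended the calls of Rasl11a, Rasgrp3 and Rassf5, with adjusted p of 0.0611, 0.129 and 0.131. A crossed block, chosen after seeing the data, gave 1066; the cause was not tested. Rasgrp3 was also lost without an eBayes trend (adjusted p = 0.0608). It was not tested with the filter at the 60th percentile or with probe sets averaged by gene.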
